A study of Mus musculus with 11 samples.

Results

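ABC transporters are membrane proteins that use ATP to move drugs, lipids, sterols, metals and metabolites across membranes, and they share a conserved ATP-binding domain. In the blood-brain barrier, efflux pumps of this family on the capillary endothelium return drugs and organic anions to the blood. The best known are P-glycoprotein, which rodents encode with the paired genes Abcb1a and Abcb1b, and the breast cancer resistance protein encoded by Abcg2. Imatinib is a known substrate of both pumps. Other branches of the family export cholesterol from cells, serve mitochondria, peroxisomes and lysosomes, or act as soluble ATPases in protein synthesis without moving anything across a membrane.

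The genes were chosen as those with a symbol of the form Abca to Abcg followed by a number, without Abcc9, a channel subunit of pericytes. Of 30789 genes measured 49 matched, and 47 of them are described here. They were chosen by name, and each had 1 probe set. A group of 7 barrier efflux pumps (Abcb1a, Abcb1b, Abcg2, Abcc1, Abcc2, Abcc4 and Abcc5), listed from general knowledge, was set beside the other 40. The family and this list were chosen with earlier results of these data known, so their shares of calls are descriptive only. Adult male C57BL/6 mice had a stroke model, MCAO, in which the middle cerebral artery is occluded, and RNA was taken from pieces of vessel (vascular fragments) of the ipsilateral hemisphere. Vessels sampled 3 h after MCAO came from PBS-treated mice on 3 arrays and from imatinib-treated mice on 2, and those sampled after 24 h from either treatment on 3 arrays each, which makes 4 groups. Imatinib is an inhibitor of tyrosine kinases and PBS is phosphate-buffered saline. All mice were treated 3 times before MCAO, and those sampled at 24 h a 4th time, so time and number of doses cannot be told apart. Every group had the occlusion, and the labels do not say whether each array was a separate animal, so p-values measure only the spread between these samples. Values are log2 RMA signals of the arrays. A log2 difference of 1 between groups is a doubling, and the levels of different genes were not compared, since each probe set has its own brightness. A signal was called low when it lay below the 25th percentile of its array (3.83 to 3.92).

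Of the 47 genes, 39 were low on no array, 6 were low on some and 2, Abca13 and Abca16, were low on all 11. Among the efflux pumps, Abcc2 was low on 10 of 11 arrays, so its differences carry little information. Of 16 endothelial genes, taken as capillary markers, none was low on any array. Their mean signal was 10.59 to 10.77 in PBS at 3 h, 10.76 to 10.77 in imatinib at 3 h, 10.12 to 10.29 in PBS at 24 h and 10.44 to 10.53 in imatinib at 24 h. No marker of microglia (10 genes), pericytes (10) or astrocytes (12) was low on any array either. A signal above the 25th percentile is not a detection call, so this alone does not show that a cell type was present.

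Promoters of 4 pump genes are shown, those of the P-glycoprotein pair, which moved in opposite directions over time, and those of Abcc4 and Abcg2, which fell. Each stretch is the 250 bases before 1 transcription start of the gene, its first entry in a table of promoters from RefSeq on GRCm38.p6. The stretches are chr5:8566841-8567090 on the plus strand for Abcb1a, chr5:8797897-8798146 on the plus strand for Abcb1b, chr14:118706220-118706469 on the minus strand for Abcc4 and chr6:58584283-58584532 on the plus strand for Abcg2. The table holds 2 starts for Abcc4 and 3 for Abcg2, and for both genes the RefSeq gene begins upstream of the start used, so these windows lie inside it in whole (Abcc4) or in part (Abcg2). Capitals mark matches, on either strand, to any of 8 short motifs.
Abcb1a: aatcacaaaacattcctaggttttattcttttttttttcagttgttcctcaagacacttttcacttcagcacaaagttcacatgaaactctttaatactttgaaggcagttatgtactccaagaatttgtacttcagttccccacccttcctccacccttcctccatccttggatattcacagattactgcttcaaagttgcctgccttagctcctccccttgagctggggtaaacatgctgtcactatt
Abcb1b: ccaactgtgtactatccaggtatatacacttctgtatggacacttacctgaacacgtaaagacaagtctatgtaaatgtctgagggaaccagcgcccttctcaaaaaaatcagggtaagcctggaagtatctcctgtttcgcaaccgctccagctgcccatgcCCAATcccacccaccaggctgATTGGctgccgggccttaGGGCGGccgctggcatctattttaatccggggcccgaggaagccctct
Abcc4: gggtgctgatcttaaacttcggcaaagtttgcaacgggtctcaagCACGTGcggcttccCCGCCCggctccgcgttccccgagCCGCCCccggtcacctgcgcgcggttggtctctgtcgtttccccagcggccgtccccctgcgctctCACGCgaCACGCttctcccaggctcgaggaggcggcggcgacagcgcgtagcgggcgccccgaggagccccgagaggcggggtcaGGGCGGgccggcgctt
Abcg2: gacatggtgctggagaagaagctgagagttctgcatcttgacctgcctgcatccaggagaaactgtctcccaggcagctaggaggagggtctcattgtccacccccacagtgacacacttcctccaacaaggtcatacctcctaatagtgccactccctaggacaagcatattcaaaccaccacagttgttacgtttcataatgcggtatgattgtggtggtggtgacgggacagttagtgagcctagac

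The motifs searched were the GC box GGGCGG, the CCAAT box, the TATA box TATAAA, the E-box CACGTG, an ETS site CCGGAAG, an AP-1 site TGACTCA, the core GCGTG of the aryl hydrocarbon receptor site, and DR4, a direct repeat bound by nuclear receptors. The promoter of Abcb1b held CCAAT at -87 and -66 and GGGCGG at -48, counted from the start. The windows of Abcb1a and Abcg2 held none of the 8. Abcc4 held 3 GC boxes, CACGTG at -205 and GCGTG at -101 and -94. Of 27025 promoters of the same length, 32.9% held GGGCGG, 34.5% CCAAT, 13% TATAAA, 6.05% CACGTG, 7.05% CCGGAAG, 4.43% TGACTCA, 28.2% GCGTG and 0.0111% DR4. Promoters were found for 37 of the 47 genes, and 15 of those held GGGCGG, 12 CCAAT, 11 GCGTG, 5 TATAAA, 5 CACGTG, 4 CCGGAAG, and none TGACTCA or DR4. A match is a run of letters, not a shown binding site.

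The first comparison followed vessels of PBS-treated mice from 3 h to 24 h after MCAO. The pumps of the barrier split. Abcb1b rose 2.77-fold and Abcc1 1.41-fold, while Abcb1a, Abcg2 and Abcc4 fell, Abcc4 by the most. Outside the pumps, Abca9 fell and Abce1, Abcf1, Abcf2 and Abcb6 rose. In all, 11 of 47 genes (23.4%) passed a Benjamini-Hochberg adjusted p of 0.05 in limma, 6 higher and 5 lower, where 16.6% of all genes passed (9.34% higher and 7.28% lower). Of the 7 pumps 5 passed (71.4%), and of the other 40 genes 6 passed (15%), a share near that of all genes. Since the list was drawn up with results known, these shares describe the pumps and are not a test. The median difference was 0.02 over the 47 genes, -0.06 over the pumps and 0.04 over the others, and that of all genes was -0.02. The 2 groups did not overlap for 18 of the 47 genes (38.3%), against 29.9% of all genes. Of these 9 were higher (15.2% of all genes) and 9 lower (14.7%).

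**Figure D1:**
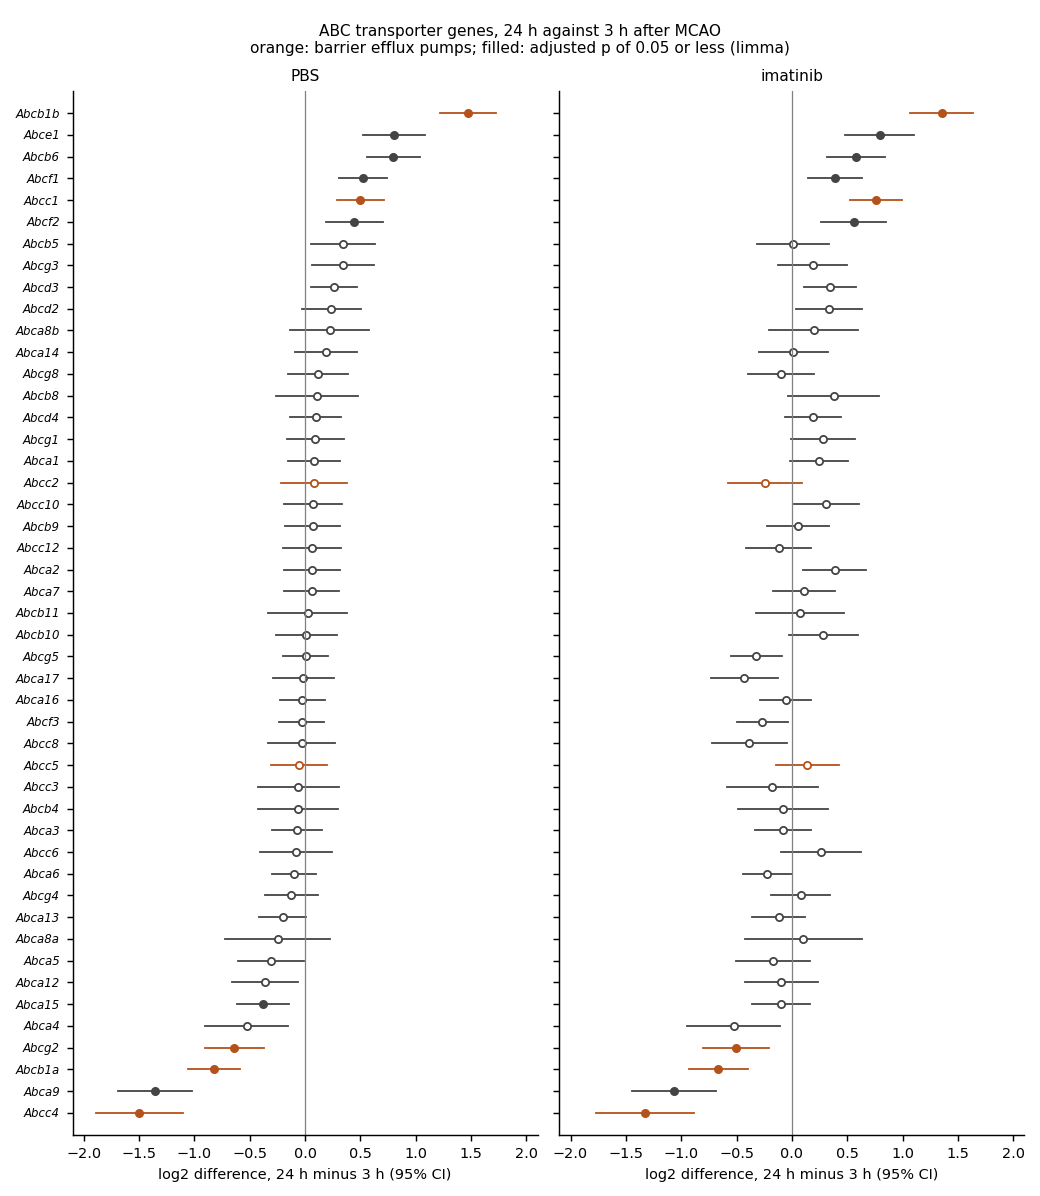
Log2 difference between 24 h and 3 h after MCAO for the 47 ABC transporter genes, in PBS (left) and in imatinib (right), in the order of the PBS values. Points are limma estimates, lines 95% confidence intervals, orange marks the barrier efflux pumps, and filled points passed an adjusted p of 0.05. Abcb1b lies highest and Abcc4 lowest on both sides, with most of the other genes near 0.

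Abcb1a encodes the P-glycoprotein of brain capillaries. Its signals in PBS were 11.60, 11.67 and 11.68 at 3 h and 10.70, 11.04 and 10.74 at 24 h. Every 24 h array lay below every 3 h array. The difference was -0.82 ± 0.11 (SE; adjusted p = 0.000355 in limma), a 1.77-fold fall. Abcb1b, the neighbouring gene on chromosome 5, encodes the second rodent P-glycoprotein. Its PBS signals were 6.47, 6.08 and 6.26 at 3 h and 7.70, 7.73 and 7.79 at 24 h. All 24 h arrays stood more than 1 unit above all 3 h arrays. The difference was 1.47 ± 0.12 (adjusted p = 1.37e-05 in limma). The next gene on the chromosome, Abcb4, which encodes a phospholipid translocator of liver canaliculi, did not pass (-0.06 ± 0.17). The pair is close in sequence, and the probe sequences were not used here, so cross-hybridisation between Abcb1a and Abcb1b was not tested.

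Abcg2 encodes the breast cancer resistance protein, which works as a dimer. It gave 10.17, 10.36 and 10.36 in PBS at 3 h and 9.51, 9.91 and 9.54 at 24 h, without overlap. It fell by 0.64 on the log2 scale (SE 0.12, adjusted p = 0.00356 in limma). Abcc4 encodes MRP4, which exports organic anions, cyclic nucleotides and prostaglandins. Its signals were 9.50, 9.99 and 10.35 at 3 h and 8.44, 8.56 and 8.34 at 24 h. The 3 h arrays spread over more than 0.8 units, and the lowest of them still lay above all 24 h arrays. The difference of -1.50 ± 0.18 (adjusted p = 0.0002 in limma) is a 2.83-fold fall. These 4 differences, like that of Abcc1, stayed past the threshold without any 1 of the 11 arrays.

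Abcc1, which encodes MRP1, an exporter of glutathione conjugates and leukotriene C4, went the other way. It gave 6.38, 6.52 and 6.39 at 3 h and 6.87, 6.88 and 7.04 at 24 h in PBS. The groups were apart and the rise was 0.50 ± 0.10 (adjusted p = 0.00385 in limma). Abcc5, which encodes MRP5, an exporter of cyclic nucleotides, lay between 7.0 and 7.18 on all 6 PBS arrays, with the groups overlapping. Its difference was -0.06, with a 95% interval of -0.31 to 0.20. Abcc2, which encodes the canalicular exporter MRP2 of liver, gave 3.95, 3.50 and 3.55 at 3 h and 3.72, 3.85 and 3.67 at 24 h, a difference of 0.08 (-0.21 to 0.38).

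Cell type markers moved beside the pumps in PBS. Of 16 endothelial genes 9 fell and none rose, with a median of -0.44, and of 10 pericyte genes 7 fell, with a median of -0.65. Astrocyte genes fell too, 7 of 12 with 1 higher (median -0.56), and 2 of 7 smooth muscle genes (median -0.59). All 8 choroid plexus genes lay below 0 (median -0.81) with none called, and their mean signal spread from 6.47 to 7.84 among the PBS 24 h arrays. Among 14 genes of monocytes and macrophages 11 rose, with a median of 1.95, and their mean signal was 6.55 to 6.75 at 3 h and 8.70 to 9.16 at 24 h. No gene of those 6 lists was low on all arrays. In such bulk samples, fewer cells of a type and less RNA per cell cannot be told apart. The part of these shifts in the differences of the pumps was not tested.

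**Figure D2:**
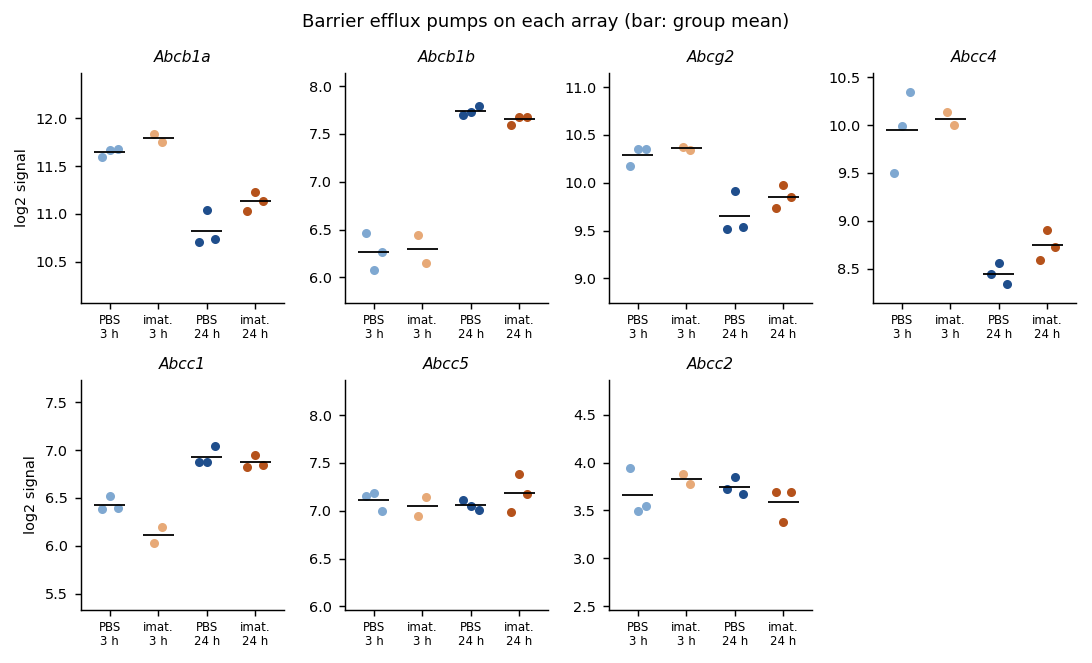
Log2 signals of the 7 barrier efflux pumps on each array (points) with the group mean (bar), for PBS and imatinib at 3 h and 24 h. Each panel spans 2.4 log2 units. Abcb1a, Abcg2 and Abcc4 are lower and Abcb1b and Abcc1 higher on the 24 h arrays with both treatments, and Abcc5 and Abcc2 overlap in PBS.

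Among the soluble ATPases, 3 of 4 rose in PBS. Abce1 encodes a factor that splits ribosomes for recycling. Its signals were 8.73, 9.18 and 9.18 at 3 h and 9.89, 9.69 and 9.92 at 24 h. With PBS 3 h replicate 1 standing below the others, the rise of 0.80 ± 0.13 (adjusted p = 0.0012 in limma) was 0.65 without that array and still passed. Abcf1, which binds initiation factor eIF2 and the ribosome, gave 8.04, 7.93 and 8.06 at 3 h and 8.51, 8.46 and 8.62 at 24 h. The groups were apart and the rise was 0.52 ± 0.10 (adjusted p = 0.0036 in limma). Abcf2 gave 7.74, 8.06 and 8.12 at 3 h and 8.44, 8.27 and 8.54 at 24 h. Its rise of 0.44 ± 0.12 (adjusted p = 0.0233 in limma) did not pass without PBS 3 h replicate 1 (0.33), PBS 24 h replicate 1 (0.43) or PBS 24 h replicate 3 (0.38). Abcf3, of the same subfamily, showed -0.03 (-0.23 to 0.17).

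Of 3 mitochondrial transporters 1 rose. Abcb6 encodes a porphyrin transporter. In PBS it gave 5.79, 5.46 and 5.71 at 3 h and 6.31, 6.52 and 6.52 at 24 h, a rise of 0.80 ± 0.11 (adjusted p = 0.000435 in limma), and the groups were apart. Abcb8 (0.11, -0.26 to 0.48) and Abcb10, which supports haem synthesis in red cell precursors (0.01, -0.27 to 0.29), did not pass. Beside these, 3 of 7 erythroid genes rose in PBS (median 0.29), and in imatinib none rose and 1 fell (median -0.22). Their part was not tested.

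**Figure D3:**
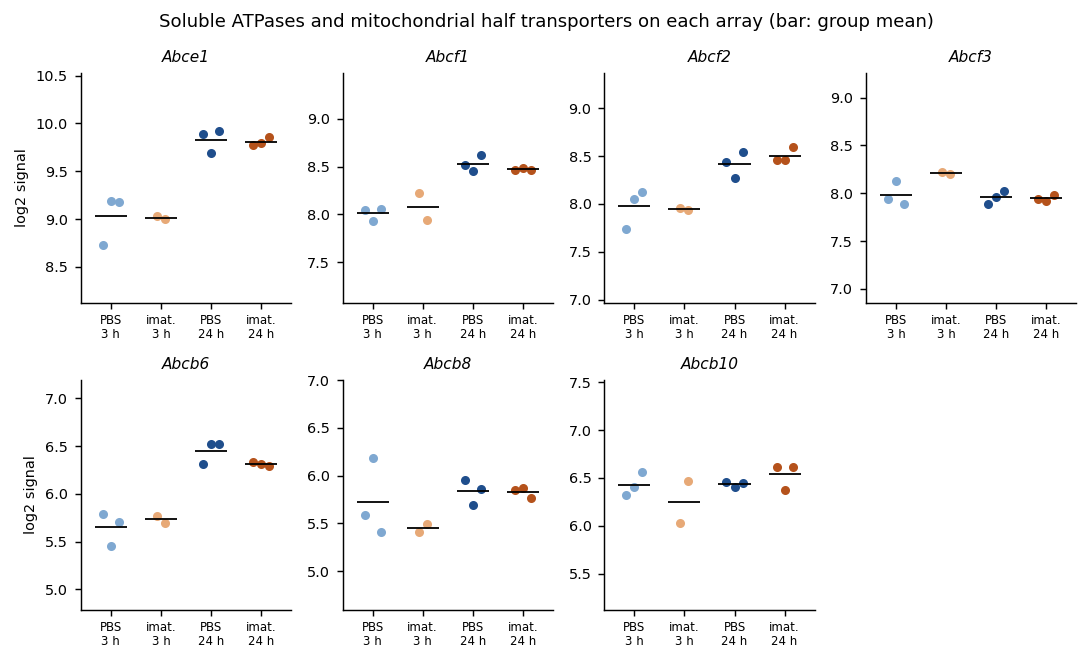
Log2 signals of the 4 soluble ATPases and 3 mitochondrial transporters on each array (points) with the group mean (bar). Each panel spans 2.4 log2 units. Abce1, Abcf1, Abcf2 and Abcb6 are higher on all 24 h arrays than on all 3 h arrays, whereas Abcf3, Abcb8 and Abcb10 show groups that overlap in PBS.

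Abca9 lies in a run of 5 neighbouring genes on chromosome 11, in the order Abca8b, Abca8a, Abca9, Abca6 and Abca5. Its PBS signals were 9.25, 9.06 and 8.79 at 3 h and 7.43, 7.72 and 7.87 at 24 h. No arrays overlapped, and it fell by 1.36 on the log2 scale (SE 0.15, adjusted p = 0.000144 in limma), 2.56-fold. None of its 4 neighbours passed, with differences of -0.31 for Abca5, -0.25 for Abca8a, -0.10 for Abca6 and 0.22 for Abca8b. Another fall was that of Abca15 on chromosome 7, next to Abca14 and Abca16. It gave 4.20, 4.50 and 4.44 at 3 h and 3.93, 4.01 and 4.06 at 24 h. The difference of -0.38 ± 0.11 (adjusted p = 0.0303 in limma) rests on signals close to the 25th percentile of the arrays. It did not pass without PBS 3 h replicate 2 (-0.32) or 3 (-0.35), or without PBS 24 h replicate 1 (-0.34), 2 (-0.38) or 3 (-0.41).

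None of the 6 genes of cholesterol and sterol export passed in PBS, and their differences lay between -0.12 and 0.12. Abca1, which loads cholesterol onto apolipoproteins, gave 9.02, 8.86 and 8.99 at 3 h and 9.13, 8.86 and 9.14 at 24 h. These groups overlapped, and the difference was 0.08 (-0.15 to 0.32). Abcg1, which exports cholesterol to high-density lipoprotein, showed 0.09 (-0.16 to 0.35). Of 22 partners of sterol efflux, 4 rose and 4 fell, with a median of -0.03. The lipoprotein lipase gene Lpl (3.36 ± 0.20) and Soat1, which esterifies cholesterol (0.89 ± 0.15), rose. Pltp, a phospholipid transfer protein (-1.02 ± 0.13), and Lcat, which esterifies cholesterol in lipoproteins (-0.54 ± 0.14), fell.

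The 15 remaining genes, of phospholipid transport, peroxisomes and lysosomes and the rest of the C family, had no call in PBS. Abca4, which encodes a retinoid and phospholipid transporter of the retina, came closest. Its signals were 5.89, 5.98 and 6.48 at 3 h and 5.48, 5.70 and 5.59 at 24 h. The groups did not overlap, and the difference was -0.53 ± 0.17 (adjusted p = 0.0592 in limma). It passed without PBS 3 h replicate 1 (-0.64, adjusted p = 0.0421) and without imatinib 24 h replicate 1 (-0.53, adjusted p = 0.0388). The latter array lies outside this comparison, and Abca4 passed without no other single array. Abcd3, a peroxisomal transporter of fatty acids and bile acid precursors, was 0.26 ± 0.10 (adjusted p = 0.0917). Its relatives Abcd2 (0.24) and Abcd4 of lysosomes (0.09) did not pass either. Among 7 genes of no named class, Abca15 was the one called, and Abca14, Abca16, Abca17, Abcb5, Abcb11 (the bile salt pump of liver) and Abcg3 lay between -0.02 and 0.34 with none called.

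Other genes of the pathways around the pumps changed in both directions. Of 27 regulators of efflux pumps, 2 rose and 7 fell in PBS, with a median of -0.19. The tumour suppressor gene Trp53 (0.63 ± 0.11) and the endotoxin receptor gene Tlr4 (0.56 ± 0.12) rose. S1pr1, the sphingosine-1-phosphate receptor of endothelium (-1.13 ± 0.11), and Lef1, a transcription factor of the Wnt pathway (-0.99 ± 0.11), fell. Of 13 solute carriers of drugs and anions 4 fell and none rose (median -0.25), led by the organic anion transporter gene Slc22a8 (-0.80 ± 0.18) and the peptide transporter gene Slc15a2 (-0.79 ± 0.19). Among ABC proteins with other symbols, the chloride channel gene Cftr (0.02) and the antigen peptide transporter genes Tap1 (-0.07) and Tap2 (-0.16) did not pass.

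The second comparison, 24 h against 3 h in imatinib-treated mice, took its means from other arrays. The spread was estimated from all 11 arrays, so its calls are not independent of those in PBS. It called 10 of the 47 genes (21.3%), 6 higher and 4 lower, where 13.1% of all genes passed (7.76% higher and 5.32% lower). All 10 were among the 11 called in PBS, with the same signs, and Abca15 was the exception (-0.09 in imatinib, -0.36 to 0.17). The count was 7 without imatinib 24 h replicate 3, where 2838 of all 30789 genes passed, against 4026 with all 11 arrays. Without either imatinib 3 h array, which left 1 array in that group, fewer ABC genes and fewer of all genes passed. With all 11 arrays, 5 of 7 pumps passed (71.4%), with a median of -0.24. Of the other 40 genes 5 passed (12.5%), with a median of 0.06, beside -0.04 for all genes. The groups did not overlap for 27 of 47 genes (57.4%), against 42.3% of all genes. Of these 15 were higher (19.4% of all genes) and 12 lower (22.8%).

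**Figure D4:**
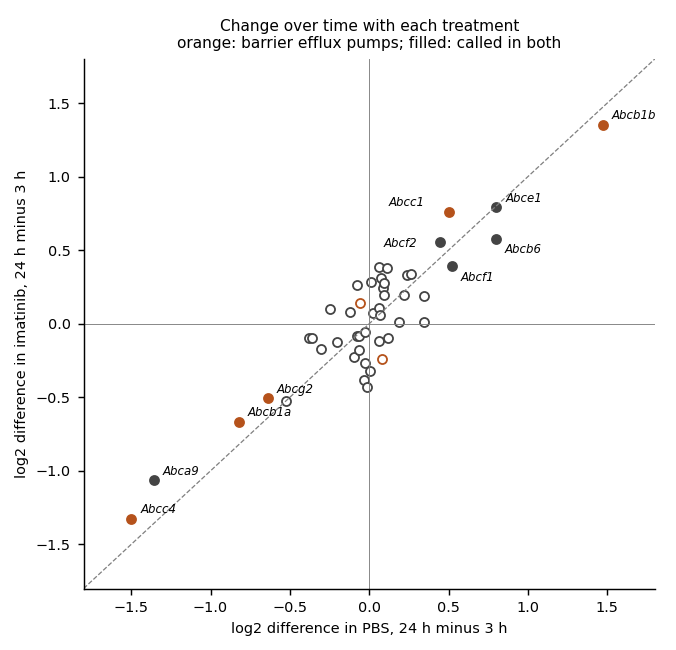
Log2 difference between 24 h and 3 h in PBS (x) against that in imatinib (y) for the 47 genes, which come from separate arrays. Orange marks the barrier efflux pumps, filled and named points passed in both, and the dashed line marks equal differences. The 10 named genes lie at the lower left or upper right, with the same sign on both axes.

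Abcb1b gave 6.44 and 6.15 in imatinib at 3 h and 7.60, 7.68 and 7.68 at 24 h. The groups were far apart and it rose 2.56-fold (1.35 ± 0.13, adjusted p = 9.49e-05 in limma). Abcb1a gave 11.84 and 11.76 at 3 h and 11.03, 11.23 and 11.14 at 24 h. It fell by 0.66 on the log2 scale (SE 0.12, adjusted p = 0.00384), again with no overlap. Abcc4 gave 10.13 and 10.00 at 3 h and 8.59, 8.91 and 8.73 at 24 h, a 2.51-fold fall (-1.33 ± 0.20, adjusted p = 0.00129 in limma). Abcc1 gave 6.02 and 6.20 at 3 h and 6.82, 6.95 and 6.84 at 24 h, a rise of 0.76 ± 0.11 (adjusted p = 0.000879 in limma). Those 4 pumps passed without any 1 array. Abcg2 was the less stable pump, with 10.38 and 10.35 at 3 h and 9.74, 9.97 and 9.85 at 24 h. Its difference of -0.51 ± 0.14 (adjusted p = 0.0297 in limma) did not pass without imatinib 3 h replicate 1 (-0.49) or 2 (-0.52) or imatinib 24 h replicate 1 (-0.45) or 3 (-0.51). Abcc5 showed 0.14 (-0.15 to 0.42), and Abcc2 was low on all 5 arrays.

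Outside the pumps, Abca9 gave 8.87 and 8.93 at 3 h and 7.73, 8.08 and 7.70 at 24 h in imatinib, a 2.09-fold fall (-1.06 ± 0.17, adjusted p = 0.00193 in limma). Abce1 gave 9.03 and 9.0 at 3 h and 9.77, 9.79 and 9.86 at 24 h and rose by 0.79 ± 0.14 (adjusted p = 0.00366 in limma). Both differences passed without any 1 array. Abcb6 (5.77 and 5.70 at 3 h, and 6.33, 6.32 and 6.29 at 24 h) rose by 0.58 ± 0.12 and did not pass without imatinib 3 h replicate 2 (0.54). Abcf2 (7.96 and 7.94 at 3 h, and 8.45, 8.46 and 8.59 at 24 h) rose by 0.56 ± 0.13, lost without imatinib 3 h replicate 1 (0.57) or 2 (0.55) or imatinib 24 h replicate 3 (0.51). Abcf1 (8.22 and 7.94 at 3 h, and 8.47, 8.49 and 8.47 at 24 h) was the weakest call, at 0.39 ± 0.11 (adjusted p = 0.0379 in limma). It did not pass without imatinib 3 h replicate 2 (0.25), PBS 24 h replicate 1 (0.39) or imatinib 24 h replicates 1 (0.40), 2 (0.38) or 3 (0.39).

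Several genes had no overlap between the times in imatinib but did not pass. Abcd3 was higher by 0.34 ± 0.11 (adjusted p = 0.0601 in limma). Also without overlap, the gene Abca2, a lipid transporter of myelinating cells, was higher by 0.39 ± 0.13 (adjusted p = 0.077 in limma). Abca17 was lower by -0.43 ± 0.14 (adjusted p = 0.0681), and by -0.68 without imatinib 3 h replicate 1, which left 1 array in that group. Abcg5, a sterol transporter of gut and liver, was lower by -0.32 ± 0.10 (adjusted p = 0.0671 in limma). Leaving out 1 array outside this comparison let Abca2 (PBS 3 h replicate 2, adjusted p = 0.0335) and Abcg5 (PBS 3 h replicate 3, adjusted p = 0.0484) pass. Their differences stayed the same, and neither passed without any other single array. Abca4 stood at -0.53 ± 0.19 (adjusted p = 0.105) and of the single arrays passed only without imatinib 24 h replicate 1 (-0.68, adjusted p = 0.043 in limma). Abca1 (0.24) and Abcg1 (0.28) were also without overlap and did not pass. Of the markers, 4 of 16 endothelial genes were lower (median -0.24), none of 10 pericyte genes was called (median -0.13), 4 of 12 astrocyte genes were lower and 1 higher (median -0.28), and 11 of 14 monocyte and macrophage genes were higher (median 1.85). Their part in these differences was not tested.

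Among the lists beside the family in imatinib, 3 of 27 pump regulators rose and 6 fell (median -0.11). S1pr1 (-1.01 ± 0.12) and Lef1 (-0.88 ± 0.12) again had the largest falls and Trp53 (0.67 ± 0.13) and Tlr4 (0.64 ± 0.13) the largest rises. Of 22 sterol efflux partners 5 rose, Lpl (3.54 ± 0.22) and Soat1 (0.98 ± 0.16) most, and Pltp fell (-0.78 ± 0.15), with a median of 0.03. Of 13 solute carriers, the nucleoside transporter gene Slc29a1 rose (0.53 ± 0.14) and the carnitine transporter gene Slc22a5 fell (-0.62 ± 0.17).

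The third question was whether imatinib changed these genes at either time. No ABC transporter passed in limma at 3 h or at 24 h, and no gene of the whole table did (0.0% at each time). An unadjusted p under 0.05 was found for 4 of 47 genes at 3 h and 3 of 47 at 24 h, where 6.4% and 6.1% of all genes had one. The groups did not overlap for 11 genes at 3 h (23.4%, against 18.7% of all genes), 6 higher (9.59% of all genes) and 5 lower (9.14%). At 24 h they did not overlap for 9 genes (19.1%), 4 higher (6.33% of all genes) and 5 lower (6.67%). The medians of the 47 genes were 0.00 at 3 h and 0.02 at 24 h, and those of all genes 0.00 and -0.01. A p that misses the threshold does not show equal levels, and the intervals give what the arrays allow.

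At 24 h Abcb1a had the smallest p of the family. The imatinib signals of 11.03, 11.23 and 11.14 overlapped those of PBS (10.70, 11.04 and 10.74) by 1 array on each side. The difference was 0.31, with a 95% interval of 0.07 to 0.54 (unadjusted p = 0.0158, adjusted p = 0.802 in limma), and 0.24 to 0.41 without 1 array. Abcc4 (0.29, -0.10 to 0.69) and Abcg2 (0.20, -0.07 to 0.47) had intervals across 0. The same held for Abcb1b (-0.09, -0.34 to 0.17), Abcc1 (-0.06, -0.27 to 0.15) and Abcc5 (0.13, -0.13 to 0.38). The groups did not overlap for Abcc4, higher in imatinib, and for Abcb1b, lower in imatinib. All 16 endothelial markers lay above 0 in the same comparison, with a median of 0.25 and 11 at an unadjusted p under 0.05, and none passed adjustment. All 8 choroid plexus markers lay above 0 as well (median 0.53), and 6 of 7 erythroid genes lay below 0, 5 of them at an unadjusted p under 0.05 (median -0.23). Monocyte and macrophage genes had a median of -0.20. None of these lists had a gene past the threshold. The part of these markers in the values of the pumps was not tested. Abca17 (4.11, 4.13 and 4.06 in imatinib, 4.42, 4.28 and 4.48 in PBS) differed by -0.30 (-0.57 to -0.02) and Abcg3 (4.37, 4.38 and 4.24 in imatinib, 4.51, 4.62 and 4.76 in PBS) by -0.30 (-0.58 to -0.02). For these 2 genes the imatinib and PBS arrays did not overlap, and the adjusted p was 0.815 in limma.

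**Figure D5:**
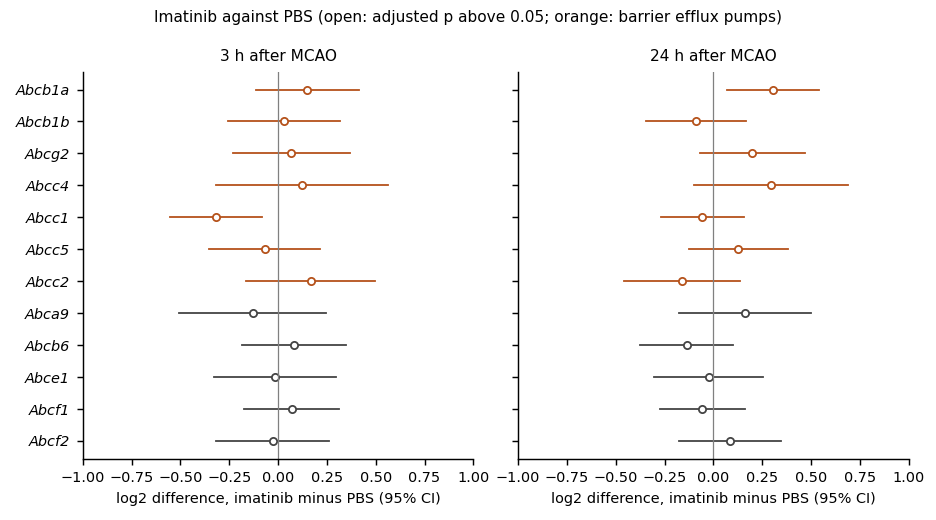
Log2 difference between imatinib and PBS at 3 h (left) and 24 h (right) for the barrier efflux pumps (orange) and 5 other ABC genes called over time in both treatments (grey). Points are limma estimates and lines 95% confidence intervals, and open points did not pass an adjusted p of 0.05. The intervals of Abcc1 at 3 h and of Abcb1a at 24 h are the ones that leave out 0.

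At 3 h Abcg5 had the smallest p. It gave 4.51 and 4.52 in imatinib and 4.13, 4.00 and 4.28 in PBS, a difference of 0.38 (0.15 to 0.61, unadjusted p = 0.00369, adjusted p = 0.7 in limma). Abcc1 gave 6.02 and 6.20 in imatinib and 6.38, 6.52 and 6.39 in PBS. It was lower on both imatinib arrays, by -0.32 (-0.56 to -0.08, adjusted p = 0.711 in limma). Abcd2, a peroxisomal transporter of very long-chain fatty acids, gave 7.24 and 7.19 in imatinib and 7.79, 7.59 and 7.32 in PBS, a difference of -0.35 (-0.65 to -0.05, adjusted p = 0.75 in limma). For these 3 genes the groups did not overlap. Abcb1a (0.15, -0.11 to 0.41), Abcb1b (0.03, -0.26 to 0.32), Abcg2 (0.07, -0.23 to 0.37) and Abcc4 (0.12, -0.32 to 0.56) had intervals that hold 0. Among these, the groups did not overlap for Abcb1a, higher in imatinib. In the same comparison all 10 microglia markers (median -0.13) and all 7 of smooth muscle (-0.24) lay below 0. So did 10 of 12 astrocyte markers (-0.27) and 8 of 10 of oligodendrocytes (-0.17), with 2 above in each. Of 16 endothelial markers 14 lay above 0 and 2 below (median 0.07). No marker was called, and their part in these values was not tested.

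The interaction asked whether the imatinib difference itself changed between 3 h and 24 h. None of the 47 genes passed in limma (smallest adjusted p = 0.902), nor did any gene of the table (0.0%), and 2 of 47 had an unadjusted p under 0.05, against 5.49% of all genes. These were Abcg5 (-0.33, -0.63 to -0.02) and Abca17 (-0.41, -0.82 to -0.01), and Abca2 came next (0.33, -0.05 to 0.71). Signals of Abcg5 and Abca17 lay not far above the low threshold. The interaction was 0.16 (-0.20 to 0.51) for Abcb1a, -0.12 (-0.50 to 0.27) for Abcb1b, 0.13 (-0.27 to 0.53) for Abcg2 and 0.17 (-0.42 to 0.76) for Abcc4. For Abcc1 it was 0.26 (-0.06 to 0.58), beside its rise of 0.50 in PBS and 0.76 in imatinib. Of 10 pericyte markers, all were below 0 for imatinib at 3 h (median -0.29) and 9 above 0 at 24 h (median 0.26), with none called and 7 interactions at an unadjusted p under 0.05. Their part in the values of these genes was not tested.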

How the data were processed

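RNA of 11 samples was measured on Affymetrix arrays. Per the labels' protocols, cDNA was amplified from nanograms of total RNA by a NuGEN whole-transcriptome kit and biotinylated. The authors deposited log2 RMA signals per probe set, made with Affymetrix Expression Console, and limma is also named, per the submitters' processing notes. The array type, software versions and genome build: not given in the sources used here. Values were not normalized again, and no depth exists for arrays, whose number limits the precision.

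Of 33793 probe sets, those left out had no symbol (1591), several symbols (128) or a date or number in its place (15). Where a gene had several probe sets (730 genes), the brightest on average stood for it, giving 30789 genes. One mean per group was fitted to all 11 arrays in limma 3.58.1 (R 4.3.3), with variances moderated by empirical Bayes (prior degrees of freedom 4.37) and p-values adjusted by Benjamini-Hochberg over all genes, at a threshold of 0.05. The fit was also run on simulated data, for the PBS comparison over time only, and its outcome is not given here. The results of 2 matching genes are not reported here, and both stayed in the fit. Alternatives were a filter on low signals, quantile normalization, the mean over probe sets, an intensity trend with a robust prior, only the groups compared, the replicate number as a block, and each array left out. Gene lists came from general knowledge. Values of every array are given for the pumps other than Abcc5 and, in imatinib, Abcc2. They are also given, per direction and comparison over time, for at most 6 called genes in order of size. For imatinib against PBS, where none passed, they are given for the 3 with the smallest p. From the other lists at most 2 genes per direction are named. Abca1, Abca4 and other genes that did not pass are named beyond that rule, as members. The family, its rule and the lists were chosen with earlier results of these data known, and the motifs after the values were seen.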

Additional observations from a re-analysis of the deposited data

How the results depend on the processing

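Over the alternatives no call of an ABC transporter reversed its sign, and 27 of the single values compared lost a call and 11 gained one. In PBS, 11 genes were called over time, and leaving out 1 array gave 9 to 12. In imatinib 10 were called, and leaving out 1 array gave 6 to 11, with 7 without imatinib 24 h replicate 3 and the 6 without imatinib 3 h replicate 2, where the lone array left is assumed to vary like the other groups. Leaving out low signals kept 30 of the 47 genes and gave 12 in each, where 5740 (PBS) and 4705 (imatinib) of 17508 genes passed. In PBS Abca4 and Abcd3 were added and Abca15 was untested, and in imatinib Abcd3 and Abca2 were added. Fitting only the groups compared gave 9 in each, with 3948 and 3750 of all 30789 genes. Quantile normalization gave 10 in PBS (without Abca15) and 9 in imatinib (without Abcf1), with 5106 and 3851 of all genes. The intensity trend gave 11 in each, with 5606 and 4572 of all genes. No ABC transporter was called for imatinib against PBS at 3 h or 24 h or for the interaction in any alternative (smallest adjusted p = 0.451, 0.524 and 0.682 in limma).

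Samples of different groups share replicate numbers in their titles, whereas their descriptions number every array differently. Arrays with the same number did not deviate together (r of -0.04 to 0.06 over 15 pairs, across genes), so the numbers were not taken as pairs. With the replicate number as a block, 11 ABC genes were called over time in PBS and 9 in imatinib. Of all 30789 genes, 4844 and 3376 passed. In imatinib Abcf1 did not pass (0.37, adjusted p = 0.072 in limma), and no ABC gene was called for imatinib against PBS or the interaction. The mean over probe sets changed no value of these genes, since each has 1 probe set, and the call counts stayed at 11 and 10.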
